A study of Mus musculus with 12 samples.

Results

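The genes of TGF-beta ligands, receptors and latent binding proteins were read in Pdgfra+ cells sorted from mouse lung. They were chosen by name and comprised 10 genes (Tgfb1, Tgfb2, Tgfb3, Tgfbr1, Tgfbr2, Tgfbr3, Ltbp1, Ltbp2, Ltbp3 and Ltbp4) of the 40760 in the count table. All 10 passed the filter on low counts and were among the 17418 genes tested. Bulk RNA-seq comprised 12 libraries, 3 in each of 4 groups, namely WT and Pear1-/- cells after vehicle (WT vehicle, Pear1-/- vehicle) and after bleomycin (WT bleo, Pear1-/- bleo). All groups were adult male mice on the C57BL/6 background. Bleomycin, a drug that injures the lung and is used to induce fibrosis, was given as an aerosol into the trachea, and the day and dose behind these libraries are not clear from the sources used here. The Pear1-/- mice carried a knockout-first (tm1a) allele in every cell, in which a cassette with a splice acceptor, LacZ and Neo sits in an intron of Pear1, the gene of a cell surface receptor. Cells were taken on the surface marker CD140a, which is the product of Pdgfra. The labels do not say whether the libraries of a group came from separate mice, so that p-values measure the spread between these libraries only, which may be technical.

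TGF-beta is secreted in a latent form, in which the mature ligand stays folded in its own propeptide. Latent TGF-beta binding proteins (LTBPs) tether this complex to microfibrils of the matrix, from where integrins and proteases release the ligand. Released ligand binds TGF-beta receptor 2, which recruits and phosphorylates TGF-beta receptor 1, and the latter phosphorylates SMAD2 and SMAD3. In lung fibroblasts the pathway is known for inducing collagen and contractile genes.

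Between 6702948 and 10447101 reads were counted on genes in each library, and a floor of 3 counts stood at 0.287 to 0.448 CPM, which are read counts scaled to a common library total. Intervals and floors of this kind cover counting error only. Counts are given per gene, so that reads from exons of Pear1 ahead of the cassette can enter them. WT vehicle had 547 ± 28.8 normalized read counts of Pear1 (SD, n = 3) against 520 ± 24.0 for Pear1-/- vehicle (log2 fold change -0.08, adjusted p = 0.47 by edgeR, and -0.0078 without WT vehicle replicate 2), while WT bleo had 254 ± 13.99 and Pear1-/- bleo 357 ± 14.2 (0.48, adjusted p = 0.00012). Since the counts of the targeted gene were not lower in the libraries labelled Pear1-/-, genotypes here are those of the labels, and Pear1-/- stands for the libraries labelled so. The sorting gene Pdgfra was present in every library, but its level differed by group, with 4565 ± 325 normalized read counts in WT vehicle and 1360 ± 29.9 in WT bleo (log2 fold change -1.74) against 4165 ± 39.1 and 2392 ± 18.8 for Pear1-/- vehicle and bleo (-0.80). It was thus 0.80 higher on the log2 scale in Pear1-/- bleo than in WT bleo (adjusted p = 1.47e-07), with an interaction of 0.94 (adjusted p = 2.44e-06). Between the vehicle groups it passed without WT vehicle replicate 2 (-0.12, adjusted p = 0.0382) but not with all libraries, and the part of Pdgfra levels in the results was not tested. Library WT vehicle replicate 2 stood apart from its group. Divided by its degrees of freedom, the chi-square between its counts and those of WT vehicle replicates 1 and 3 was 21.2 and 21.8, but only 1.73 to 2.67 against the 3 Pear1-/- vehicle libraries, where sampling of reads by itself would give about 1. By the same measure, Pear1-/- vehicle replicate 3 gave 4.305 and 4.821 against its own group, more than the 2.672 against WT vehicle replicate 2. The other pairs within a group lay between 1.351 and 1.584. Labels were kept as deposited, and the calls in comparisons that use WT vehicle are given with and without WT vehicle replicate 2.

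The sequence upstream of the transcription start is shown for the 3 genes of the group that differed over 2-fold between the bleo groups (Tgfb2, Ltbp1 and Tgfbr1) and for Ltbp2, which rose most with bleo in Pear1-/- cells. Each run holds the 250 bases before a RefSeq start (GRCm38.p6), 5′ to 3′ on the strand of the gene, and capitals mark the SMAD motif CAGAC or its reverse complement GTCTG.
Tgfb2 (chr1:186705990-186706239, minus strand): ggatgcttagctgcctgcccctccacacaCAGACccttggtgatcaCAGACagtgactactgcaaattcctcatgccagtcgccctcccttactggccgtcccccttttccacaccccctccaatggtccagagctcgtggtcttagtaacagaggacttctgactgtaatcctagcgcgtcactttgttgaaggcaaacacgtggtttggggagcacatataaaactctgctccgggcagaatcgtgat
Ltbp1 (chr17:75005279-75005528, plus strand): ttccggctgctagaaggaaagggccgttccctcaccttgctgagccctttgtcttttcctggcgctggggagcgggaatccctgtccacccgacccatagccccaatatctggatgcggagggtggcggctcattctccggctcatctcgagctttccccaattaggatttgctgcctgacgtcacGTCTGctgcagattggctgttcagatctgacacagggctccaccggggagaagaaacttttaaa
Ltbp2 (chr12:84876492-84876741, minus strand): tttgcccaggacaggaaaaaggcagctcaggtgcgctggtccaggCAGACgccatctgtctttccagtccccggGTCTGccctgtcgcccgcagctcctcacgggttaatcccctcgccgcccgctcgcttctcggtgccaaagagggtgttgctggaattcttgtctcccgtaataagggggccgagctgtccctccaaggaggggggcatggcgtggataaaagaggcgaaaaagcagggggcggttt
Tgfbr1 (chr4:47352972-47353221, plus strand): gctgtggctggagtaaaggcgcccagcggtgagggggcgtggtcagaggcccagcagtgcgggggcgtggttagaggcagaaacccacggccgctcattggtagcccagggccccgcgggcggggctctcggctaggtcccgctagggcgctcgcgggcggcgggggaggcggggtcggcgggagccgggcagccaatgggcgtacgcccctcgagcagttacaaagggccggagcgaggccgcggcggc
The windows shown held 2 matches each for Tgfb2 and Ltbp2, 1 for Ltbp1 and 0 for Tgfbr1. Ltbp1 and Tgfbr1 have a second RefSeq start each, and its window, not shown, held 2 matches for Ltbp1 and 1 for Tgfbr1. RefSeq gave 12 such windows for 8 of the 10 genes, 3 of them for Ltbp4 and partly overlapping, and none was used for Tgfb3 and Tgfbr3. Of the 12 windows, 7 held the motif on either strand, and so did 42.2% of the 32851 RefSeq windows of the same length read over all mouse genes. A second motif, the AP-1 site TGACTCA, was in 0 of the 12 windows and in 4.46% of all windows. Such matches are letters in a window and not measured binding. Starts differ between annotations. In the GENCODE M21 annotation Ltbp1 begins at chr17:75005568, and the bases after its RefSeq starts did not match the opening of its transcripts there. The Ltbp2 window shown reaches into the GENCODE M21 gene, which ends at chr12:84876532.

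In WT vehicle the ligand genes were led by Tgfb3. Since read counts grow with transcript length, levels of different genes were compared as normalized read counts per kb of exon. Tgfb3 had 563 ± 16.9 per kb (SD, n = 3), Tgfb2 51.1 ± 5.28 and Tgfb1 49.6 ± 6.07. Tgfb1 and Tgfb2 overlapped, whereas Tgfb3 made up 84.8% ± 0.330 of the summed ligand level. Over the 10 genes in WT vehicle, the order from high to low was Ltbp4, Tgfbr2, Tgfb3, Ltbp1, Tgfbr3, Tgfbr1, Ltbp2, Tgfb2, Tgfb1 and Ltbp3. Only the neighbours Tgfb2 and Tgfb1 overlapped between their libraries in this order. Pear1-/- vehicle had the same first 7 genes in this order, although Ltbp4 and Tgfbr2 overlapped there, followed by Tgfb1, Tgfb2 (which overlapped) and Ltbp3. In WT bleo the order was Tgfbr2, Tgfbr1, Ltbp2, Tgfb3, Ltbp1, Ltbp4, Tgfb1, Ltbp3, Tgfbr3 and Tgfb2, with no overlap between neighbours. In Pear1-/- bleo, Tgfbr2 was followed by Ltbp2, Tgfb3, Ltbp1, Tgfbr1, Ltbp4, Tgfbr3, Tgfb1, Tgfb2 and Ltbp3, and the last pair overlapped.

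The question of the first comparison was how the levels of these genes changed with bleo in WT cells. All 10 genes passed the test (edgeR's quasi-likelihood test with Benjamini-Hochberg adjustment over the 17418 genes, adjusted p under 0.05). Of these, 4 were higher in WT bleo than in WT vehicle (Tgfb1, Tgfbr1, Ltbp2 and Ltbp3) and 6 were lower (Tgfb2, Tgfb3, Tgfbr2, Tgfbr3, Ltbp1 and Ltbp4). Over all genes tested, 31.4% were higher and 36.6% lower. The median log2 fold change was -0.57 over the 10 genes and -0.07 over all genes tested. Without WT vehicle replicate 2, 9 of the 10 passed and Tgfbr2 did not (log2 fold change -0.10, adjusted p = 0.0892), and the 10 fold changes moved by at most 0.145. In that fit 20405 genes were tested, of which 31.7% were higher and 44.7% lower.

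In Pear1-/- cells, 4 of the 10 were higher in bleo than in vehicle (Tgfb1, Tgfbr1, Ltbp2 and Ltbp3), 4 were lower (Tgfb3, Tgfbr3, Ltbp1 and Ltbp4), and Tgfb2 and Tgfbr2 did not pass. Over all genes tested, 28.9% were higher and 33.4% lower. The median log2 fold change was 0.14 over the 10 genes and -0.05 over all genes. Between the bleo groups, 6 were higher in Pear1-/- bleo than in WT bleo (Tgfb2, Tgfb3, Tgfbr2, Tgfbr3, Ltbp1 and Ltbp2), 2 were lower (Tgfb1 and Tgfbr1), and Ltbp3 and Ltbp4 did not pass. Here 22.1% of all genes tested were higher and 23.9% lower, and the median was 0.47 over the 10 genes and -0.01 over all genes. These comparisons share groups, so that the values of each are given side by side below and no overlap between them is taken as a result.

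**Figure D1:**
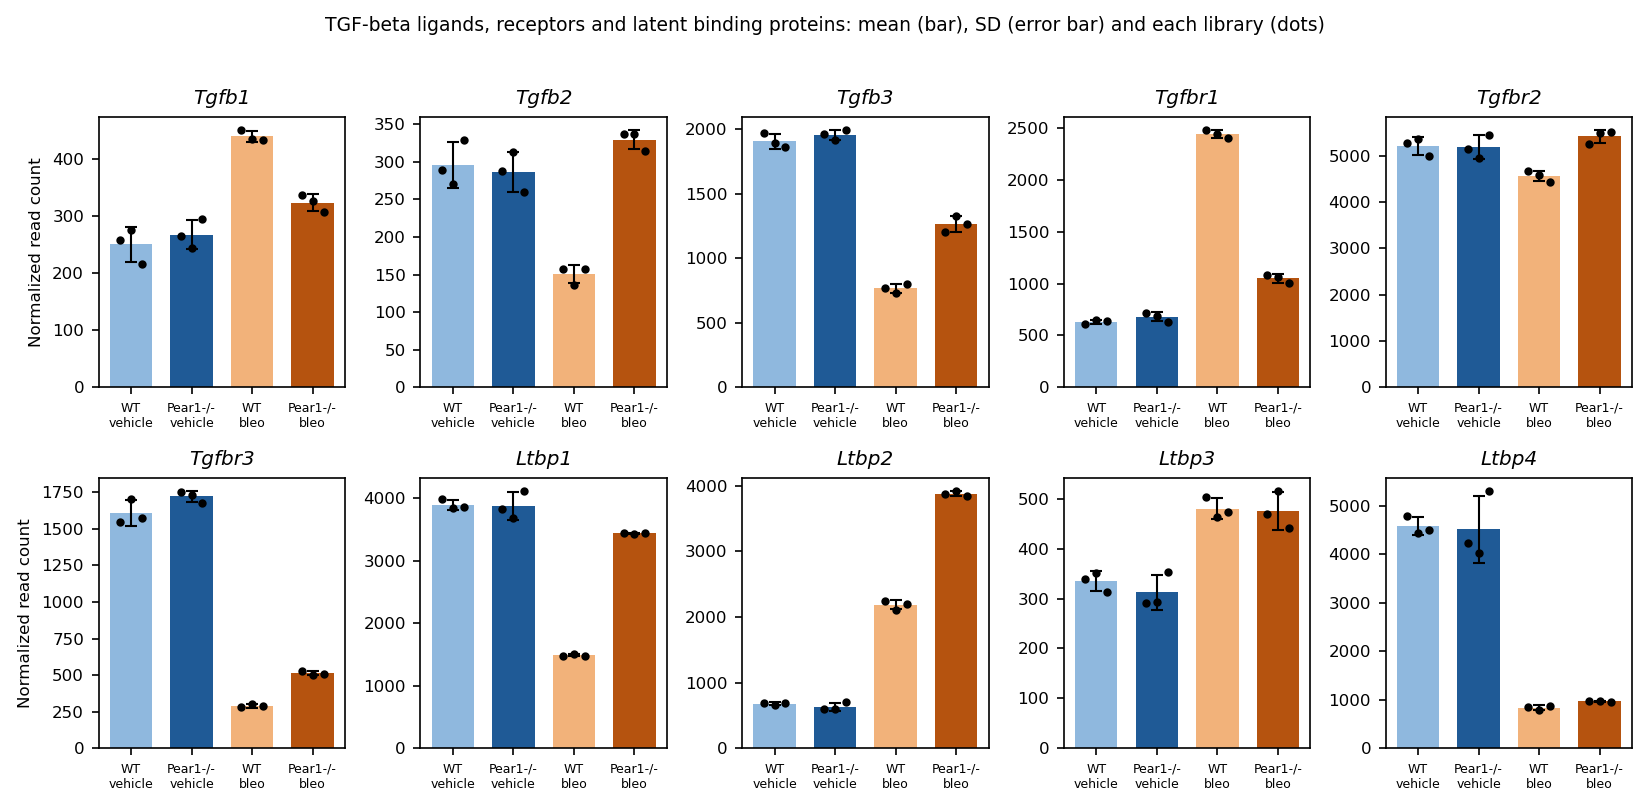
Normalized read counts (y axis, linear and from 0) of each of the 10 genes in the 4 groups (x axis). Bars are means, error bars are SD of 3 libraries and dots are libraries; the 3 WT bleo libraries of Tgfbr1 lie between 2402 and 2484 and those of Pear1-/- bleo between 1007 and 1087, with no overlap.

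Among the ligands, Tgfb1 encodes the isoform best known in fibrosis. Its normalized read counts in replicates 1 to 3 were 258, 276 and 216 in WT vehicle, 264, 243 and 295 in Pear1-/- vehicle, 451, 434 and 433 in WT bleo, and 337, 327 and 307 in Pear1-/- bleo. Every bleo library lay above every vehicle library, and the WT bleo libraries lay above those of Pear1-/- bleo. The log2 fold change with bleo was 0.82 in WT cells (SE 0.095, adjusted p = 2.08e-06) and 0.28 in Pear1-/- cells (SE 0.095, adjusted p = 0.0172). Leaving out 1 of the 12 libraries put the latter between 0.20 and 0.34, and it no longer passed without replicate 1 or 2 of either Pear1-/- group or when 1 of the 3 WT bleo libraries was left out. From WT bleo to Pear1-/- bleo the difference was -0.46 (SE 0.091, adjusted p = 0.000803).

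Tgfb2 encodes a second isoform, which depends on the coreceptor betaglycan for strong binding to receptor 2. Its counts were 289, 269.9 and 329.7 in WT vehicle, 288, 313 and 259.7 in Pear1-/- vehicle, 158, 137 and 158 in WT bleo, and 337, 337 and 315 in Pear1-/- bleo. The WT bleo libraries were the low ones, below all of the other 9, which lay close together. The level of Tgfb2 was lower with bleo in WT cells (log2 fold change -0.96, SE 0.104, adjusted p = 1.09e-06). In Pear1-/- cells the log2 fold change was 0.20 and did not pass (SE 0.096, adjusted p = 0.0757), although it did in the fit without WT vehicle replicate 2 (0.18, adjusted p = 0.0491). Between the bleo groups the difference was 1.11 (SE 0.102, adjusted p = 4.08e-07), a 2.16-fold higher level in Pear1-/- bleo. The opposite-strand gene Gm29491 shares 124 bases with exons of Tgfb2.

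Tgfb3, the most abundant ligand here, had 1968, 1890.4 and 1857 normalized read counts in WT vehicle, 1960.1, 1912 and 1991 in Pear1-/- vehicle, 771, 727 and 797 in WT bleo, and 1205, 1329.8 and 1262 in Pear1-/- bleo. The bleo libraries were all below the vehicle libraries, and Pear1-/- bleo lay between WT bleo and vehicle without overlap. The log2 fold change with bleo was -1.30 in WT (SE 0.069, adjusted p = 2.51e-10) and -0.62 in Pear1-/- cells (SE 0.067, adjusted p = 1.29e-06). It was 0.71 between Pear1-/- bleo and WT bleo (SE 0.068, adjusted p = 6.40e-07). Exons of Tgfb3 share bases with exons of the opposite-strand genes Gm37804 (163 bases) and Gm48008 (257 bases), and reads of such pairs cannot be told apart if they were counted without strand.

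Per exon length, the summed ligand level was 664 ± 17.4 after vehicle and 339 ± 12.8 after bleo in WT cells, and 680.2 ± 12.2 and 495 ± 18.4 in Pear1-/- cells (SD, n = 3). The share of Tgfb1 in this sum was 7.47% ± 0.839, 25.7% ± 0.971, 7.79% ± 0.619 and 13.0% ± 0.786 in the same order. Tgfb3 held 84.9% ± 0.206 after vehicle and 75.5% ± 1.32 after bleo in Pear1-/- cells, and 66.6% ± 0.797 after bleo in WT cells. Thus Tgfb3 was the leading ligand transcript in every group, and the libraries of the bleo groups did not overlap in the share of any of the 3 ligands. These are shares of transcripts per length, not of protein.

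Of the receptors, Tgfbr1 encodes the kinase that phosphorylates SMAD2 and SMAD3. Its normalized read counts were 612, 648 and 638 in WT vehicle, 716, 689 and 633 in Pear1-/- vehicle, 2484, 2445 and 2402 in WT bleo, and 1087, 1062 and 1007 in Pear1-/- bleo. All bleo libraries were above the vehicle libraries, with WT bleo far above Pear1-/- bleo. Its log2 fold change with bleo was 1.96 in WT (SE 0.071, adjusted p = 3.39e-12), the largest rise of the 10 genes there, and 0.63 in Pear1-/- cells (SE 0.069, adjusted p = 1.47e-06). From WT bleo to Pear1-/- bleo Tgfbr1 changed by -1.23 (SE 0.068, adjusted p = 2.02e-09).

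Tgfbr2 encodes the kinase that binds the ligand first, and it was the receptor with the highest level per length in each group. It had 5289, 5355 and 4998 normalized read counts in WT vehicle, 5157, 4961 and 5458 in Pear1-/- vehicle, 4664, 4581 and 4441 in WT bleo, and 5262, 5484 and 5524 in Pear1-/- bleo. WT bleo was below the others by a small margin, and the remaining groups overlapped. On the log2 scale the change with bleo in WT cells was -0.18 (SE 0.060, adjusted p = 0.0145), and Pear1-/- bleo exceeded WT bleo by 0.24 (SE 0.060, adjusted p = 0.00455). The first no longer passed with no filter on low counts or without any one of the 12 libraries other than WT vehicle replicate 3, and the second without replicate 2 or 3 of either bleo group, where adjusted p reached 0.0738. In Pear1-/- cells the change with bleo was 0.07 (adjusted p = 0.345).

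Tgfbr3 encodes betaglycan, a coreceptor without kinase activity that presents ligand. Its counts were 1545, 1708 and 1575 in WT vehicle, 1753, 1735 and 1679.55 in Pear1-/- vehicle, 280.1, 301 and 287 in WT bleo, and 532, 503 and 508 in Pear1-/- bleo. The bleo libraries held the low values and the 2 bleo groups did not overlap. Tgfbr3 changed with bleo by -2.47 on the log2 scale in WT (SE 0.071, adjusted p = 2.91e-13) and by -1.74 in Pear1-/- cells (SE 0.068, adjusted p = 1.30e-11). With all libraries its fall in WT was the largest of the 10, close to that of Ltbp4 (-2.44). Without WT vehicle replicate 2 the order turned, with -2.40 for Ltbp4 and -2.36 for Tgfbr3. Pear1-/- bleo exceeded WT bleo by 0.82 on the log2 scale (SE 0.071, adjusted p = 2.16e-07). Gm43422 lies on the same strand and shares 297 bases with exons of Tgfbr3.

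The summed receptor level per kb was 979.6 ± 32.9 after vehicle and 975 ± 19.7 after bleo in WT cells, and 1001 ± 22.4 and 902 ± 10.2 in Pear1-/- cells (SD, n = 3). Within that sum, Tgfbr1 held 9.89% ± 0.353 in WT vehicle and 38.3% ± 0.176 in WT bleo, and stood at 10.39% ± 0.777 and 17.9% ± 0.843 in Pear1-/- vehicle and bleo. Tgfbr3 went the other way, from 25.1% ± 0.803 to 4.53% ± 0.197 in WT and from 26.3% ± 1.03 to 8.71% ± 0.363 in Pear1-/- cells. Tgfbr2 held 65.0% ± 1.03 and 57.1% ± 0.259 after vehicle and bleo in WT cells and 63.3% ± 1.78 and 73.4% ± 1.14 in Pear1-/- cells. The receptor sums of the WT bleo libraries lay within the range of the WT vehicle libraries, while the shares of Tgfbr1, Tgfbr2 and Tgfbr3 did not overlap between them.

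**Figure D2:**
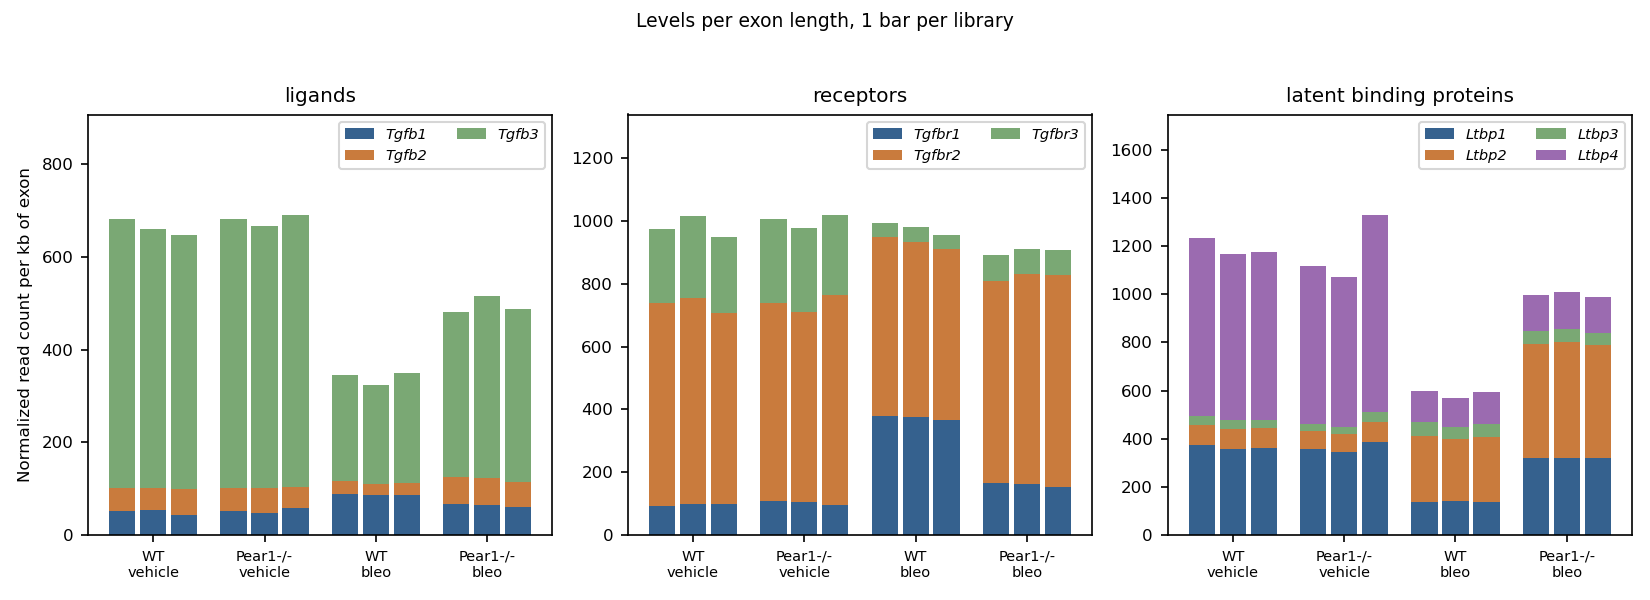
Normalized read counts per kb of exon (y axis, linear and from 0) in each library, stacked by gene for the ligands, the receptors and the latent binding proteins, with 3 bars a group on the x axis. Tgfb3 fills 66.6% to 84.9% of the ligand bars as group means, Tgfbr1 38.3% of the receptor bars in WT bleo and Ltbp4 59.5% of the latent binding protein bars in WT vehicle against 21.9% in WT bleo.

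Ltbp1 encodes the latent binding protein that anchors TGF-beta 1 in the matrix. Its normalized read counts were 3979, 3836 and 3849 in WT vehicle, 3824, 3684 and 4113 in Pear1-/- vehicle, 1481, 1512 and 1478 in WT bleo, and 3439.9, 3431 and 3434 in Pear1-/- bleo. WT bleo was the low group, and the Pear1-/- bleo libraries lay just below both vehicle groups. The log2 fold change with bleo was -1.37 in WT (SE 0.063, adjusted p = 5.69e-11) and -0.17 in Pear1-/- cells (SE 0.062, adjusted p = 0.0263). The latter no longer passed without Pear1-/- vehicle replicate 1 or 3, without any one of the Pear1-/- bleo libraries, or with no filter on low counts (adjusted p = 0.407). Between the bleo groups it was 1.19 (SE 0.063, adjusted p = 1.28e-09), a 2.28-fold higher level in Pear1-/- bleo.

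Ltbp2 encodes the family member that does not bind latent TGF-beta and that belongs to elastic fibres. It had 683, 659.6 and 696 normalized read counts in WT vehicle, 596, 599 and 703 in Pear1-/- vehicle, 2244, 2111 and 2202 in WT bleo, and 3874, 3922 and 3846 in Pear1-/- bleo. The 4 groups stepped up from overlapping vehicle libraries to WT bleo and then to Pear1-/- bleo. On the log2 scale Ltbp2 rose with bleo by 1.70 in WT (SE 0.076, adjusted p = 4.13e-11) and by 2.62 in Pear1-/- cells (SE 0.078, adjusted p = 8.75e-13), the largest rise of the 10 there. Pear1-/- bleo was above WT bleo by 0.82 (SE 0.073, adjusted p = 3.16e-07). The antisense gene D030025P21Rik shares 764 bases, 9.34% of the exon length of Ltbp2.

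Ltbp3 encodes a protein that binds latent TGF-beta of all isoforms. Its counts were 338, 352 and 313 in WT vehicle, 292, 293 and 352 in Pear1-/- vehicle, 503, 463 and 474 in WT bleo, and 469, 516 and 440.4 in Pear1-/- bleo. Bleo libraries were above vehicle libraries, and the bleo groups overlapped. It rose with bleo by 0.53 in WT (SE 0.091, adjusted p = 0.000105) and by 0.61 in Pear1-/- cells (SE 0.091, adjusted p = 3.36e-05) on the log2 scale, and the bleo groups differed by -0.03 (SE 0.088, adjusted p = 0.83).

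Ltbp4 encodes a protein needed for elastic fibre assembly in the lung, and it had the highest level per length in both vehicle groups. It had 4799.97, 4450.5 and 4504 normalized read counts in WT vehicle, 4228, 4019.65 and 5311 in Pear1-/- vehicle, 851, 781 and 873.7 in WT bleo, and 969, 979 and 956 in Pear1-/- bleo. Both bleo groups were far below vehicle, and the Pear1-/- bleo libraries lay above those of WT bleo by a small margin. The log2 fold change with bleo was -2.44 in WT (SE 0.098, adjusted p = 1.06e-11) and -2.22 in Pear1-/- cells (SE 0.097, adjusted p = 4.46e-11). Between the bleo groups the log2 fold change was 0.20 (SE 0.094, adjusted p = 0.0973), and it passed when only these 2 groups entered the fit (adjusted p = 9.01e-05), without WT vehicle replicate 2 (adjusted p = 0.0277) and without Pear1-/- vehicle replicate 3 (adjusted p = 0.0445).

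Summed per length, the LTBP genes stood at 1193 ± 37.3 after vehicle and 589 ± 15.3 after bleo in WT cells, and 1173 ± 139 and 998 ± 10.45 in Pear1-/- cells (SD, n = 3). In WT cells the share of Ltbp4 went from 59.5% ± 0.576 to 21.9% ± 0.787 and that of Ltbp2 from 6.96% ± 0.244 to 45.4% ± 0.294. In Pear1-/- cells Ltbp4 went from 59.4% ± 2.003 to 15.0% ± 0.0316 and Ltbp2 from 6.60% ± 0.203 to 47.5% ± 0.0452. Ltbp1 held 23.7% ± 0.920 in WT bleo and 32.2% ± 0.359 in Pear1-/- bleo, and Ltbp3 held 8.99% ± 0.238 and 5.25% ± 0.365. The leading LTBP transcript was thus Ltbp4 after vehicle and Ltbp2 after bleo, in both genotypes as labelled.

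**Figure D3:**
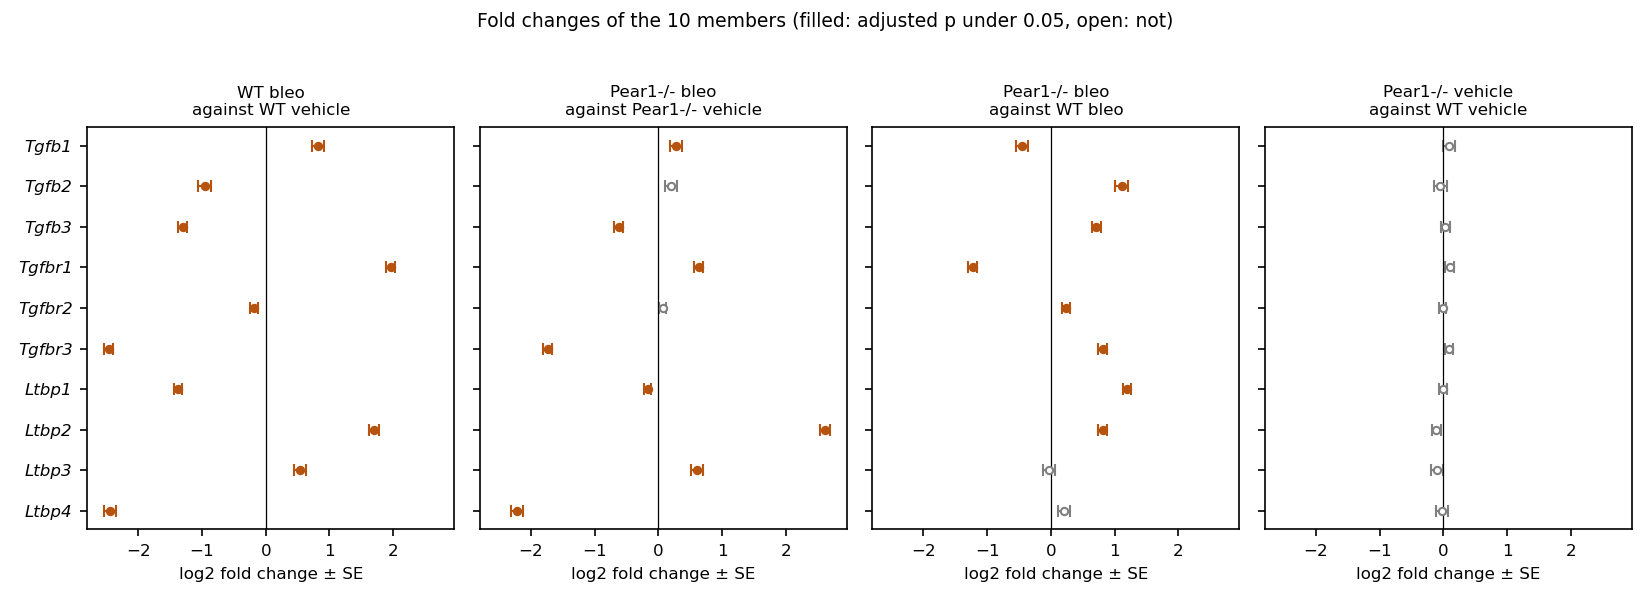
Log2 fold changes (x axis, with SE) of the 10 genes (y axis) in 4 comparisons, filled where adjusted p was under 0.05 by edgeR. Between Pear1-/- bleo and WT bleo, Tgfbr1 lies at -1.23 and Ltbp1 at 1.19, and all 10 points between the vehicle groups are open and lie between -0.11 and 0.10.

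In vehicle-treated cells the genotypes as labelled were compared too, and 0 of the 10 genes passed by edgeR, 0 had an unadjusted p under 0.05, and 0 passed by DESeq2 or limma. Their log2 fold changes ran from -0.11 for Ltbp2 to 0.10 for Tgfbr1, and all 10 overlapped between the groups. Over all genes tested, 0.855% were higher and 3.65% lower in Pear1-/- vehicle. Without WT vehicle replicate 2, Tgfbr1 (0.19, adjusted p = 0.0225) and Tgfbr3 (0.21, adjusted p = 0.00262) were higher in Pear1-/- vehicle, and the 10 fold changes moved by at most 0.151. In that fit 25.5% of all genes tested were higher and 29.7% lower, so that 2 of 10 is below the share over all genes. Of the markers of other cells in that fit, 9 of 10 lymphoid were higher (median log2 fold change 0.74). So were 4 of 4 pan-leukocyte (0.50) and 4 of 10 myeloid markers, with 0 lower in each list. Epithelial markers were 5 higher and 1 lower of 8, and endothelial markers 4 and 0 of 8. Smooth muscle and pericyte markers were 1 higher and 3 lower of 7. Mesothelial markers were 0 and 1 of 4, platelet markers 1 and 0 of 5, and mesenchymal markers 5 and 3 of 10. The part of these cells was not tested. With all libraries the medians were -0.01 over the 10 genes and -0.00394 over all genes.

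Whether the change of a gene with bleo differed between the 2 genotypes was tested as the interaction. This is the log2 fold change with bleo in Pear1-/- cells minus that in WT cells. It passed for 8 of the 10 genes, above 0 for 6 (Tgfb2, Tgfb3, Tgfbr2, Tgfbr3, Ltbp1 and Ltbp2) and below 0 for 2 (Tgfb1 and Tgfbr1), against 17.9% and 19.1% of all genes tested. Its median was 0.47 over the 10 genes and -0.00 over all genes. The largest values were those of Tgfbr1 at -1.33 (SE 0.098, adjusted p = 1.56e-07), Ltbp1 at 1.20 (SE 0.088, adjusted p = 1.47e-07) and Tgfb2 at 1.16 (SE 0.141, adjusted p = 1.72e-05). For Ltbp3 it was 0.08 (adjusted p = 0.666) and for Ltbp4 0.23 (adjusted p = 0.197). The value of Ltbp4 passed without Pear1-/- vehicle replicate 3 (0.30, adjusted p = 0.0392). That of Tgfbr2 did not pass with no filter (adjusted p = 0.592), with the replicate number as a block (adjusted p = 0.0559), or without any one of the 12 libraries other than WT vehicle replicate 3 (adjusted p from 0.0752 to 0.305). Without WT vehicle replicate 2, Tgfbr2 did not pass (0.15, adjusted p = 0.0861), the other 7 did, and Ltbp3 stood at -0.04, against 20.4% above 0 and 26% below 0 over all genes in that fit.

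Marker levels of other cell types differed between these groups too, as the plot of marker lists shows. The summed level of 10 myeloid markers ranged from 2100 to 2403 CPM after vehicle and 13100 to 13250 after bleo in WT cells, and from 2347 to 2473 and 5962 to 6121 in Pear1-/- cells. Counts of markers that passed are to be read beside the shares of all genes that were higher and lower, 31.4% and 36.6% with bleo in WT cells, 28.9% and 33.4% in Pear1-/- cells, and 22.1% and 23.9% between the bleo groups. Of the myeloid markers 9 of 10 were higher in WT bleo than in WT vehicle and 9 of 10 lower in Pear1-/- bleo than in WT bleo, and no marker of this or the other lists was at the floor in every library. Ptprc, which encodes the leukocyte antigen CD45, had 7542 to 7727 normalized read counts in WT bleo and 3241 to 3448 in Pear1-/- bleo. The 10 mesenchymal markers summed to between 18240 and 19130 CPM after vehicle and 12530 and 12660 after bleo in WT cells, and to between 18000 and 18300 and between 32650 and 33420 in Pear1-/- cells, with 6 of 10 higher and 1 lower in Pear1-/- bleo than in WT bleo. The collagen genes Col1a1, Col1a2 and Col3a1 had the highest counts of this list in the bleo groups and rose with bleo in Pear1-/- cells, where 4 of the 10 markers were higher and 6 lower (Pdgfra, Dcn, Lum, Thy1, Tcf21 and Inmt), with a median log2 fold change of -0.70. In WT cells 3 of the 10 were higher and 7 lower with bleo, with a median of -0.88. Without WT vehicle replicate 2 these counts in WT cells were the same for both lists. The part of these cells in the results was not tested, and in bulk libraries fewer cells of a type and less RNA per cell cannot be told apart.

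The remaining marker lists held other cell types of the lung. Lymphoid markers summed to 544 to 820 CPM after vehicle and 727 to 739 after bleo in WT cells, and to 807 to 855 and 525 to 546 in Pear1-/- cells. Epithelial markers summed to between 4795 and 6533 CPM over the vehicle libraries, 1665 to 1692 in WT bleo and 744 to 754 in Pear1-/- bleo. Most of that sum was Scgb1a1 and Sftpc, and of the 8 markers 2 were higher (Epcam, 0.36, and Cdh1, 0.90, as log2 fold changes) and 6 lower in WT bleo than in WT vehicle, while 1 (Cdh1) was higher and 5 lower in Pear1-/- bleo than in WT bleo. Endothelial markers lay between 257 and 280 CPM over the bleo libraries and between 469.5 and 502 over the vehicle libraries. Smooth muscle and pericyte markers lay between 192 and 196 CPM in WT bleo and between 518 and 545 in Pear1-/- bleo, but only 3 of the 7 were higher there, among them Des and Actg2, and 2 (Myh11 and Notch3) were lower. Platelet markers summed to 33.6 to 35.8 CPM over the vehicle libraries, 75.5 to 79.2 in WT bleo and 41.2 to 42.6 in Pear1-/- bleo. Of these 5, Pf4 was higher with bleo (2.67 in WT and 1.55 in Pear1-/- cells on the log2 scale) and the other 4 lower. Mesothelial markers summed to between 24.6 and 37.2 CPM over the vehicle libraries, 8.02 to 9.59 in WT bleo and 13.0 to 15.3 in Pear1-/- bleo, where 3 of the 4 were higher than in WT bleo. The part of these cells in the results was not tested either. The counts of epithelial markers between the bleo groups (1 and 5 of 8) and of smooth muscle markers (3 and 2 of 7) compare with 22.1% and 23.9% over all genes. Sums of pan-leukocyte markers lay between 3783 and 3926 CPM in WT bleo and between 1927 and 1967 in Pear1-/- bleo.

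**Figure D4:**
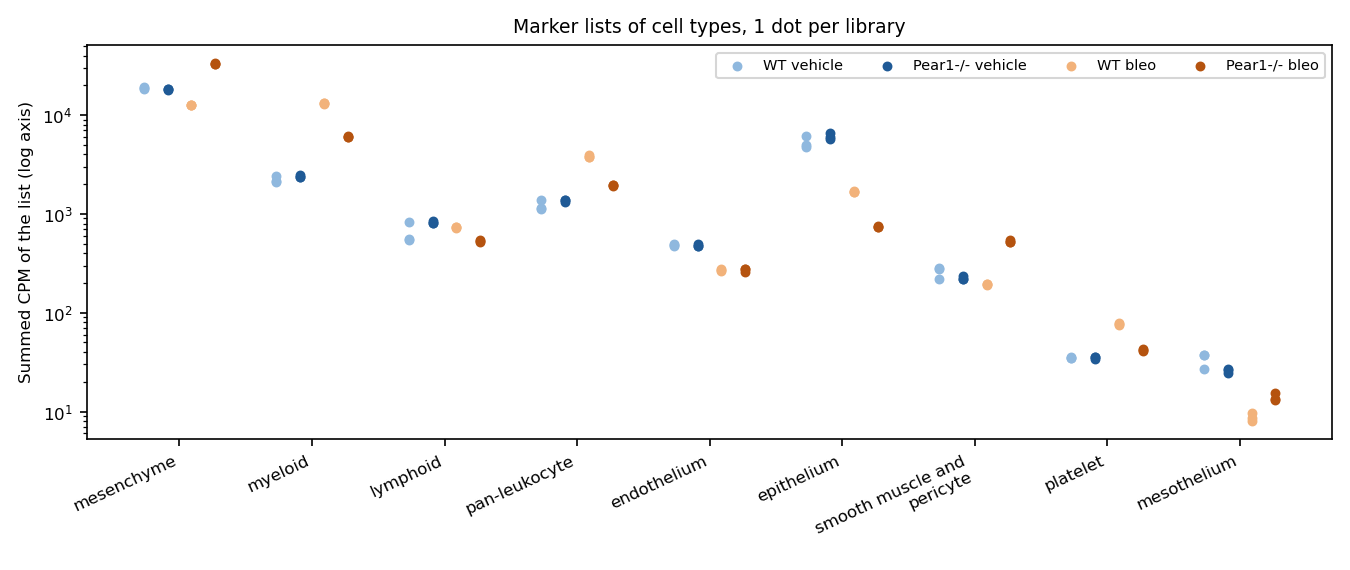
Summed CPM (y axis, log scale) of 9 marker lists (x axis), with 1 dot per library and a colour per group. Myeloid sums lie at 13100 to 13250 CPM in WT bleo and at 5962 to 6121 in Pear1-/- bleo, and mesenchymal sums at 12530 to 12660 and 32650 to 33420.

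The other genes of the pathway were read in 3 lists. Of 19 genes that store, activate or cleave TGF-beta, 7 were higher and 8 lower in WT bleo than in WT vehicle, and 13 were higher and 3 lower in Pear1-/- bleo than in Pear1-/- vehicle. Between Pear1-/- bleo and WT bleo, 12 were higher and 4 lower, with a median log2 fold change of 0.63. The shares over all genes tested, higher and lower, were 31.4% and 36.6% with bleo in WT cells, 28.9% and 33.4% in Pear1-/- cells, and 22.1% and 23.9% between the bleo groups, so that the counts in WT cells were near those over all genes. Fmod, which encodes the TGF-beta binding proteoglycan fibromodulin, rose from 261 ± 54.5 to 1301 ± 28.7 normalized read counts in WT and from 229 ± 31.6 to 4579 ± 106 in Pear1-/- cells (SD, n = 3). Its log2 fold change was 2.33 and 4.33 with bleo in these cells and 1.80 between Pear1-/- bleo and WT bleo (SE 0.118, adjusted p = 1.18e-08).

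Itgb5, which encodes the beta subunit of an integrin that can activate latent TGF-beta, went from 345 ± 30.8 to 1250.0 ± 11.95 normalized read counts in WT and from 324 ± 21.5 to 537 ± 24.8 in Pear1-/- cells. This gave 1.87 and 0.73 with bleo and -1.23 between Pear1-/- bleo and WT bleo (SE 0.076, adjusted p = 6.49e-09). Mmp9, a gelatinase gene, went from 239 ± 176 to 87.9 ± 12.1 in WT and from 408 ± 33.1 to 201 ± 19.9 in Pear1-/- cells. With bleo it changed by -1.45 in WT cells and -1.01 in Pear1-/- cells on the log2 scale, and the bleo groups differed by 1.18 (SE 0.355, adjusted p = 0.0131). The last did not pass without WT bleo replicate 3 (1.07, adjusted p = 0.0643) or Pear1-/- bleo replicate 2 (1.09, adjusted p = 0.0544). WT vehicle replicate 2 held 440.4 normalized read counts, and without it the change with bleo in WT cells was -0.57. Over the 3 WT vehicle libraries Mmp9 thus ran from 118 to 440.4.

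Of 18 signalling genes, among them the SMADs and their regulators, 12 were higher and 5 lower in WT bleo than in WT vehicle, against 5 higher and 7 lower in Pear1-/- cells. Between Pear1-/- bleo and WT bleo, 1 was higher and 10 lower, with a median log2 fold change of -0.35. Against the shares over all genes, the 5 and 7 of 18 in Pear1-/- cells were close to 28.9% and 33.4%, whereas the other counts are to be read against 31.4% and 36.6% in WT cells and 22.1% and 23.9% between the bleo groups. Smurf2 encodes a ubiquitin ligase that targets receptor 1, and it changed by 0.29 with bleo in WT (adjusted p = 0.0153), by -0.60 in Pear1-/- cells (adjusted p = 0.000118) and by -0.94 between the bleo groups (SE 0.1003, adjusted p = 1.98e-06). The first of these did not pass by DESeq2 (adjusted p = 0.0594) or with only the groups compared in the fit (0.26, adjusted p = 0.0612). Tgif1 encodes a SMAD corepressor, and its values were 1.28, 0.20 and -0.93 (SE 0.067, adjusted p = 3.18e-08) in the same order, of which 0.20 did not pass without any one of the 6 Pear1-/- libraries or the 3 WT bleo libraries, or with no filter on low counts (0.25, adjusted p = 0.0530). Ppm1a, which encodes a phosphatase reported to act on SMAD2 and SMAD3, had 0.83, 0.24 (adjusted p = 0.153) and -0.74 (SE 0.131, adjusted p = 0.000266).

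Of 18 genes known as targets of the pathway, 12 were higher and 4 lower in WT bleo than in WT vehicle, and 13 were higher and 2 lower in Pear1-/- bleo than in Pear1-/- vehicle. Between Pear1-/- bleo and WT bleo, 12 were higher and 5 lower, with a median log2 fold change of 0.71. Over all genes tested these shares were 31.4% and 36.6%, 28.9% and 33.4%, and 22.1% and 23.9%. Col1a1, the gene of a collagen I chain, had 42471 ± 36.2 normalized read counts in WT bleo and 142173 ± 3129 in Pear1-/- bleo, against 32386 ± 1005 and 31524 ± 2065 in the vehicle groups. Its log2 fold change between the bleo groups was 1.73 (SE 0.050, adjusted p = 6.60e-12). The 5 genes that were lower in Pear1-/- bleo were Tgfbi, Skil, Smad7, Pmepa1 and Junb. They were named after their values were seen, and a shared role of these genes was not tested.

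Il11, which encodes a cytokine of the IL-6 family, had 31.0 ± 5.04 normalized read counts after vehicle and 19.4 ± 2.96 after bleo in WT cells, and 31.7 ± 3.13 and 60.2 ± 3.04 in Pear1-/- cells. Its log2 fold change was -0.67 with bleo in WT (adjusted p = 0.0150), 0.92 in Pear1-/- cells (adjusted p = 0.000610) and 1.62 between the bleo groups (SE 0.204, adjusted p = 1.09e-05). The fall in WT was not called by DESeq2 (adjusted p = 0.0529), with no filter on low counts (-0.55, adjusted p = 0.106), with only the groups compared in the fit (-0.70, adjusted p = 0.0565), without WT vehicle replicate 2 (-0.47, adjusted p = 0.130) or without WT bleo replicate 1 (-0.53, adjusted p = 0.0756). Cdkn2b encodes the cell cycle inhibitor p15, and its values were 0.56 (adjusted p = 0.0652), 2.78 (adjusted p = 1.05e-07) and 1.57 (SE 0.209, adjusted p = 1.89e-05). The first of the Cdkn2b values passed with no filter on low counts (0.69, adjusted p = 0.0230), without WT bleo replicate 3 (0.73, adjusted p = 0.0249) and without WT vehicle replicate 1 (0.78, adjusted p = 0.0234). It was 0.60 and passed without any one of the Pear1-/- vehicle libraries or Pear1-/- bleo replicate 1 (adjusted p from 0.0270 to 0.0484). Counts of both genes were low, between 12 and 123 reads per library for Cdkn2b and between 18 and 73 for Il11.

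Between the vehicle groups, 3 of the 19 storage and activation genes, 0 of the 18 signalling genes and 1 of the 18 target genes passed, all lower in Pear1-/- vehicle (0.855% of all genes were higher and 3.65% lower), and none of the 9 genes named above did, although Mmp9 passed with no filter on low counts (0.82, adjusted p = 3.35e-09). No gene of any list passed with the vehicle groups alone in the fit or without any 1 of the 11 libraries other than WT vehicle replicate 2, since no gene of the whole table did, with 2955 to 6917 genes at an unadjusted p under 0.05 in the edgeR fits. Without WT vehicle replicate 2 these were 7 higher and 6 lower, 7 higher and 0 lower, and 6 higher and 5 lower, where 25.5% of all genes were higher and 29.7% lower, and of the 9 named genes Mmp9 (1.63), Tgif1 (0.27), Fmod (-0.29) and Cdkn2b (-0.74) passed. The interaction passed for 11 storage and activation genes above 0 and 3 below, for 2 and 9 signalling genes and for 11 and 4 target genes, where 17.9% and 19.1% of all genes did. Without that library these were 11 and 5, 2 and 12, and 11 and 5, beside 20.4% and 26% of all genes. The counts of WT bleo against WT vehicle were then 8 higher and 8 lower, 12 and 5, and 12 and 2, beside 31.7% and 44.7% of all genes. For the 9 named genes the interaction was 1.999 for Fmod, -1.14 for Itgb5, -0.90 for Smurf2, -1.08 for Tgif1, -0.60 for Ppm1a (which did not pass by DESeq2, adjusted p = 0.0742, or without WT vehicle replicate 1, adjusted p = 0.0605), 1.77 for Col1a1, 1.60 for Il11 and 2.22 for Cdkn2b, and for Mmp9 it was 0.43 and did not pass (adjusted p = 0.497), but -0.46 without that library (adjusted p = 0.0306). The interactions of the other 8 without it were 2.09 for Fmod, -1.15 for Itgb5, -0.94 for Smurf2, -1.21 for Tgif1, -0.62 for Ppm1a, 1.71 for Col1a1, 1.38 for Il11 and 2.30 for Cdkn2b. The changes with bleo in WT cells were then 2.23 for Fmod, 1.87 for Itgb5, 0.32 for Smurf2, 1.39 for Tgif1, 0.84 for Ppm1a, 0.45 for Col1a1 and 0.47 for Cdkn2b, with the calls as before.

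**Figure D5:**
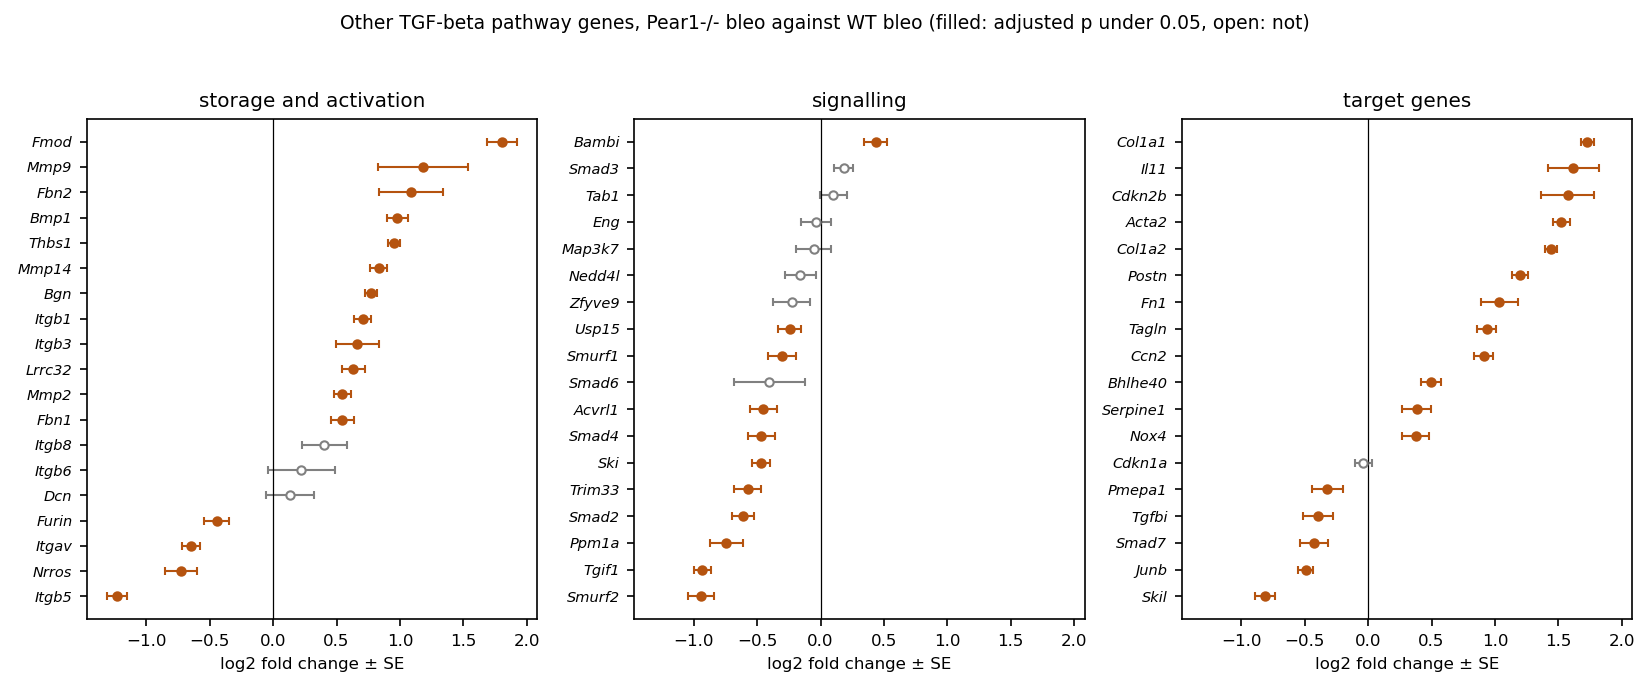
Log2 fold change between Pear1-/- bleo and WT bleo (x axis, with SE) of the genes of 3 pathway lists (y axis), filled where adjusted p was under 0.05 by edgeR. Storage and activation genes run from -1.23 for Itgb5 to 1.80 for Fmod, signalling genes from -0.94 for Smurf2 to 0.44 for Bambi, and target genes from -0.81 for Skil to 1.73 for Col1a1.

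The genes whose pattern was most like each of the 10 were sought by Pearson's r of log2 CPM over the 12 libraries, among the 10444 genes whose mean log2 CPM reached 3. This is a description over libraries that share groups, depth and cell makeup. For the ligands these were Rin3 (r = 0.993) and Adam15 (0.988) for Tgfb1, Fermt2 (0.979) and Meox2 (0.977) for Tgfb2, and Kcne4 (0.998) and Epas1 (0.996) for Tgfb3. For the receptors they were Snx5 (0.998) and Cd86 (0.997) for Tgfbr1, 1810055G02Rik (0.969) and Akt2 (0.967) for Tgfbr2, and Il6st (0.999) and Maob (0.998) for Tgfbr3. Dkk3 (0.998) and Fkbp9 (0.996) were most like Ltbp1, Fst (0.998) and Uck2 (0.997) Ltbp2, Colgalt1 (0.974) and Wdr83os (0.973) Ltbp3, and Adamts10 (0.998) and Boc (0.997) Ltbp4.

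The genes lie at separate places of the genome (GRCm38). Tgfb1 and Ltbp4 are both on chromosome 7, at chr7:25687002-25705077 on the plus strand and chr7:27305136-27337692 on the minus strand. Tgfb3 and Ltbp2 are both on the minus strand of chromosome 12, at chr12:86056745-86079041 and chr12:84783212-84876532, and moved with bleo in opposite directions. Tgfb2 is at chr1:186622792-186705989 (minus), Tgfbr1 at chr4:47353222-47414931 (plus), Tgfbr2 at chr9:116084293-116175360 (minus), Tgfbr3 at chr5:107106570-107289629 (minus), Ltbp1 at chr17:75005568-75392512 (plus) and Ltbp3 at chr19:5740904-5758532 (plus). Counts were taken over whole genes, so that isoforms from different starts, such as the long and short forms of Ltbp1, are summed.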

How the data were processed

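RNA of the sorted Pdgfra+ lung cells was amplified with the SMART-Seq v4 kit, and the study states alignment to GRCm38 (mm10) with HISAT2. The authors deposited raw read counts per gene, and a second table of normalized signal, which equals those counts divided by a size factor of each library. The counting program and its strand setting are not given in the sources used here. Gene symbols are those of the deposited tables, with Ccn2 listed there as Ctgf. FastQC is named in the submitters' processing notes.

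Fold changes come from edgeR 4.0.16 in R 4.3.3, with TMM normalization, filterByExpr by group, 1 mean per group over all 12 libraries and the two-sided quasi-likelihood test with Benjamini-Hochberg adjustment over all genes kept, tested on simulated data first. Alternatives were DESeq2 1.42.0, RLE factors, no filter, limma 3.58.1 on log2(normalized + 1), only the groups compared, the replicate number as a block, and each library left out in turn. The counts over pathway and marker lists without WT vehicle replicate 2, and the alternatives of the other named genes, were added after seeing the data. The study itself used limma. Exon length per gene came from GENCODE M21, and upstream sequences from RefSeq. Depth was 6702948 to 10447101 counts per library, and 3 counts were taken as the floor.

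The 10 genes, the pathway lists and the marker lists were chosen with earlier results of these data known. Named were the 10 genes, up to 3 genes of each pathway list with the largest absolute fold change among those that passed between Pear1-/- bleo and WT bleo, the 2 genes most like each of the 10, and Pear1 and Pdgfra as checks.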

Additional observations from a re-analysis of the deposited data

Results flagged for a closer look

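The response to bleo differed between the genotypes as labelled, by the test of the interaction (edgeR, Benjamini-Hochberg adjustment over all genes tested), in 8 of the 10 genes, with 3 libraries in each of the 4 groups. Over all genes tested, 17.9% passed above 0 and 19.1% below 0. On the log2 scale the change in Pear1-/- cells minus the change in WT cells was -0.54 for Tgfb1 (adjusted p = 0.00552), 1.16 for Tgfb2 (adjusted p = 1.72e-05), 0.68 for Tgfb3 (adjusted p = 6.05e-05), -1.33 for Tgfbr1 (adjusted p = 1.56e-07), 0.25 for Tgfbr2 (adjusted p = 0.0320), 0.73 for Tgfbr3 (adjusted p = 3.67e-05), 1.20 for Ltbp1 (adjusted p = 1.47e-07) and 0.92 for Ltbp2 (adjusted p = 8.77e-06). The value of Tgfbr2 did not hold over the alternatives, and without WT vehicle replicate 2 it was 0.15 (adjusted p = 0.0861). The summed myeloid markers were 5962 to 6121 CPM in Pear1-/- bleo and 13100 to 13250 in WT bleo, and their part in these values was not tested.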

How the results depend on the processing

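Of 890 values of the 10 genes under the alternatives, with each of the 12 libraries left out in turn, 790 kept their direction and side of the threshold, 42 no longer passed, 7 came to pass and 51 changed sign, 44 of the latter between the vehicle groups, where no gene had passed. Of 979 values of the other named genes, these numbers were 919, 21, 13 and 26. Deviations of 18 same-numbered pairs correlated between -0.161 and 0.0997. With 3 libraries a group this gave no sign of pairing by replicate number, but it cannot exclude a matched design. With the replicate block the interaction of Tgfbr2 no longer passed (0.25, adjusted p = 0.0559), and no other call on the 10 genes changed. The median over all genes moved by 0.0298 or less in size with RLE scaling, but without the filter it moved by 0.133 between WT bleo and WT vehicle, where Tgfbr2 stood at -0.05 (adjusted p = 0.683), and by 0.096 between the vehicle groups.

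With no filter on low counts, 19438 genes passed between WT bleo and WT vehicle, against 11838, and 5638 between the vehicle groups, against 784. With only the vehicle groups in the fit the latter was 0 (3091 at an unadjusted p under 0.05), and it ran from 0 to 11258 over the 12 libraries left out in turn. The value of 11258 was the one without WT vehicle replicate 2, and without any 1 of the others it was 0, with 2955 to 5868 genes at an unadjusted p under 0.05 when it was a vehicle library and 6885 to 6917 when it was a bleo library. The count of the 10 genes that passed there ran from 0 to 2. The cause was not tested.

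With no filter, the signs between the vehicle groups turned for Tgfb2 (0.051), Tgfbr2 (0.084), Ltbp1 (0.086), Ltbp4 (0.071), Itgb5 (0.0044), Smurf2 (0.051), Col1a1 (0.053) and Pear1 (0.018), and the interaction of Ltbp3 was -0.0018. With 1 library left out, values that turned ran between the vehicle groups from -0.0058 to 0.24 for Tgfb1, -0.064 to 0.059 for Tgfb2, -0.038 to 0.081 for Tgfbr2, -0.015 to 0.077 for Ltbp1, -0.16 to 0.0043 for Ltbp3, -0.12 to 0.11 for Ltbp4, -0.054 to 0.045 for Smurf2, -0.20 to 0.0051 for Ppm1a, -0.055 to 0.048 for Col1a1 and -0.072 to 0.24 for Il11. Between the bleo groups Ltbp3 ran from -0.10 to 0.019, and the interaction from -0.045 to 0.12 for Ltbp3 and from -0.46 to 0.76 for Mmp9. Depth limits genes with few reads, such as Cdkn2b with as few as 12 in a library.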
